A study of Mus musculus with 12 samples.

Results

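The genes of MHC class II antigen presentation were described in macrophages and monocytes sorted from mouse bone marrow. They were chosen by symbol (10 of 56953 genes in the deposited tables), and all 10 were measured in every library: the chain genes H2-Aa, H2-Ab1 and H2-Eb1, the invariant chain gene Cd74, the peptide exchange genes H2-DMa, H2-DMb1 and H2-DMb2, the modulator genes H2-Oa and H2-Ob, and the transactivator gene Ciita. The mice were female C57BL/6J animals, 8 weeks old, of the genotype Rank cre/+;R26.eYFP fl/+. Rank-driven Cre is active in embryonic myeloid precursors but not in adult haematopoietic stem cells, so F4/80hi macrophages (CD206+ VCAM1+) that carried the eYFP label were taken as embryonic (eYFP+) and unlabelled ones as adult-derived (eYFP-). Ly6Chi and Ly6Clo monocytes were also sorted from bone marrow, and each of the 4 groups had 3 libraries. The labels do not say that replicates came from separate mice, so p-values measure only the spread between these samples. They also give no efficiency for the reporter, and eYFP- cells are defined by the lack of it.

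MHC class II molecules are heterodimers of an alpha and a beta chain that carry peptides from endocytosed material to the cell surface, where CD4+ T cells read them. H2-Aa and H2-Ab1 encode the chains of I-A, and H2-Eb1 encodes the beta chain of I-E. C57BL/6 mice make no I-E alpha chain, and the corresponding gene, H2-Ea-ps, had at most 2 counts in any library. Newly made chains assemble around the invariant chain CD74, which blocks the groove until endosomal proteases degrade it. H2-DM then exchanges the remaining fragment for peptide, and H2-O, best known from B cells and some dendritic cells, restrains H2-DM. CIITA is the coactivator on which transcription of these genes depends. It is recruited to proteins bound at conserved X and Y boxes just upstream of each gene.

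The promoter entries of RefSeq (mouse build GRCm38.p6, 250 bases before to 50 after each gene start) held 7 of the 10 genes, and H2-Ab1, Cd74 and Ciita had no entry. The windows below are shown because the Y box and X box are the sequence that these genes share and through which CIITA acts. Each window reads 5′ to 3′ on the strand of the gene. Capitals mark the letters GATTGG (the core of the Y box, an inverted CCAAT) and, where present, AGCAAC (letters of the X box).
H2-Oa: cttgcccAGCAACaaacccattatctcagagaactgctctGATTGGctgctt
H2-Ob: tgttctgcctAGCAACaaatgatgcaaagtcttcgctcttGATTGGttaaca
H2-Eb1: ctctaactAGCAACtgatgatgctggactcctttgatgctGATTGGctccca
H2-Aa: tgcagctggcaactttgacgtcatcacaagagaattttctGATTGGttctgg
H2-DMb1: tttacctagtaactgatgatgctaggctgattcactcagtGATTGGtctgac
H2-DMb2: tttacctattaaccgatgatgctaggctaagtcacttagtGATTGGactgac

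In build GRCm38.p6 these windows were chr17:34092295-34092346 on the plus strand for H2-Oa, chr17:34238807-34238858 (plus) for H2-Ob and chr17:34305767-34305818 (plus) for H2-Eb1. They were chr17:34287861-34287912 on the minus strand for H2-Aa, chr17:34153089-34153140 (plus) for H2-DMb1 and chr17:34145118-34145169 (plus) for H2-DMb2. GATTGG, searched on both strands, occurred in 7 of 7 entries of these genes and in 16.1% of all 32851 promoter entries. On the strand of the gene and 100 to 40 bases before the start, a range set after the hits were seen, it occurred in 6 of 7 (H2-DMa was the exception) and in 3.3% of all entries. AGCAAC occurred on either strand in 3 of 7 and in 14.8% of all entries. An AGCAAC within 40 bases before a GATTGG occurred in H2-Oa, H2-Ob and H2-Eb1 and in 0.0944% of all entries. Both H2-O genes thus carried the same pair of letters as H2-Eb1. The pair was read in these same entries, so its share is a description. Whether the pair goes with the level of a gene was not tested. A match is a description of the letters, and the windows without AGCAAC may hold other forms of the X box.

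The libraries held 26390927 to 48618187 counts in genes. All 10 macrophage marker genes were higher in macrophages than in monocytes, as labelled. The 5 Ly6Chi monocyte markers with an adjusted p were all higher in Ly6Chi than in Ly6Clo monocytes. Of 7 Ly6Clo monocyte markers 5 were lower in Ly6Chi monocytes and 2 did not pass. In counts scaled by the DESeq2 size factors, Cx3cr1 had 31005, 6815 and 24750 in Ly6Clo and 16795 to 22162 in Ly6Chi libraries. Ccr2, a Ly6Chi marker, had 15711 to 25456 in Ly6Clo and 74943 to 85956 in Ly6Chi libraries. Ly6Clo replicate 2 stood apart. It had the lowest total and the fewest genes with a count (16434, against up to 27634 elsewhere), and its genes with the highest GC content (2587 genes with a median GC of 57.2%) lay at a median log2 ratio of -1.06 to the other Ly6Clo libraries. eYFP+ replicate 1 lay at -0.58 by the same measure and every other library between -0.05 and 0.53. Counts of class II genes called, and their called differences that moved by over 1.5 times, are therefore also given without Ly6Clo replicate 2.

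**Figure D1:**
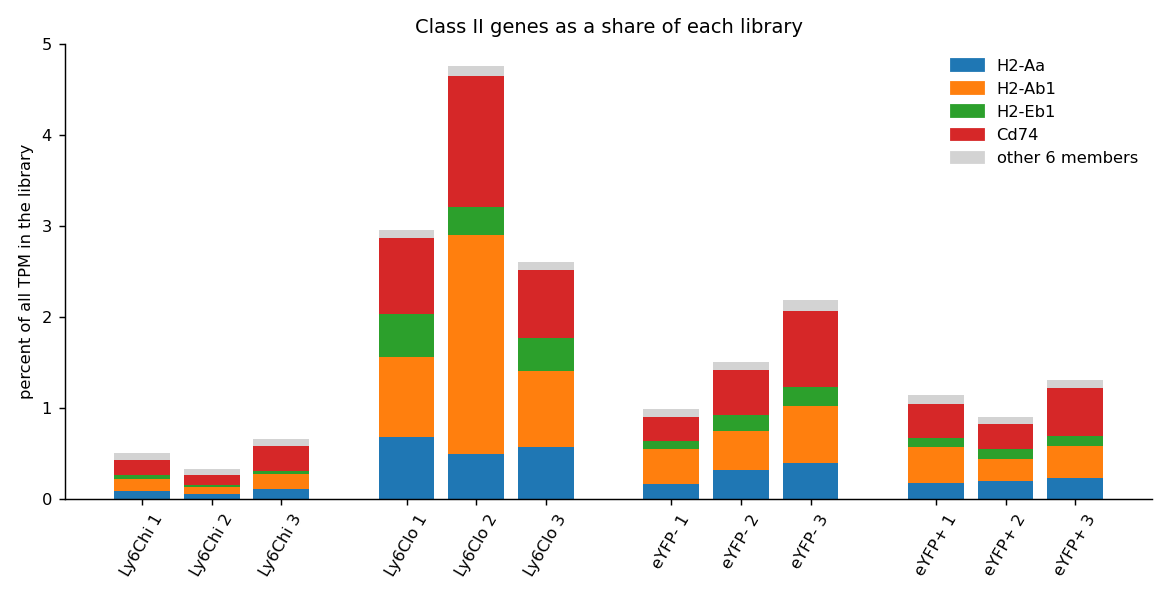
Share of the summed TPM (transcript abundance per length, scaled to the same total in every library) in each of the 12 libraries taken by the class II genes, in percent, with H2-Aa, H2-Ab1, H2-Eb1, Cd74 and the other 6 genes stacked. The 3 Ly6Clo libraries stand between 2.61 and 4.77%, above all others, and the 3 Ly6Chi libraries lie lowest, between 0.329 and 0.661%.

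The class II genes together took 2.61 to 4.77% of all TPM, a measure of abundance per transcript length, in Ly6Clo monocytes, 0.991 to 2.19% in eYFP- macrophages, 0.905 to 1.31% in eYFP+ macrophages and 0.329 to 0.661% in Ly6Chi monocytes. The 4 genes for the chains and CD74 made up 81.2 to 97.6% of that sum in every library. Levels of the chains and of CD74 were thus highest in Ly6Clo monocytes and lowest in Ly6Chi monocytes, with both macrophage populations between them.

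The chain genes showed this order most plainly. H2-Aa, the I-A alpha chain, had normalised counts (scaled by the DESeq2 size factors) of 150696, 121967 and 135870.0 in the Ly6Clo libraries and of 22307, 13411 and 26071 in the Ly6Chi libraries. In eYFP- macrophages it had 40900.0, 63159 and 85879.8, and in eYFP+ macrophages 43636, 42725 and 47100.4. The groups did not overlap except for both macrophage populations, whose ranges did. H2-Eb1, the I-E beta chain, followed the same course, with 114634 to 152331 normalised counts in Ly6Clo, 31498 to 66780.4 in eYFP-, 32338 to 35915 in eYFP+ and 8302 to 13492 in Ly6Chi libraries. Across the 12 libraries H2-Aa and H2-Eb1 had a Pearson correlation of 0.996 on the variance-stabilised scale, a description over libraries that share their depth and base composition. H2-Eb1 was counted at these levels although I-E cannot be assembled in this strain.

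H2-Ab1, the I-A beta chain, had 208413, 637010.0 and 209705 normalised counts in Ly6Clo, 32191, 20222 and 40574 in Ly6Chi, 95741, 89526 and 147010.0 in eYFP- and 104935, 57113 and 77189 in eYFP+ libraries. The value of Ly6Clo replicate 2 lay at a log2 ratio of 1.61 to the other libraries of its group, whereas H2-Aa of the same library lay at -0.23. Cd74 had 227844, 441320.0 and 219898 in Ly6Clo, 50659, 30509.6 and 80328 in Ly6Chi, 77088, 120590.0 and 226635 in eYFP- and 115143, 75278 and 133788 in eYFP+ libraries. One eYFP- library thus reached the Ly6Clo range, and Cd74 of the Ly6Chi libraries overlapped with that of both macrophage populations.

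**Figure D2:**
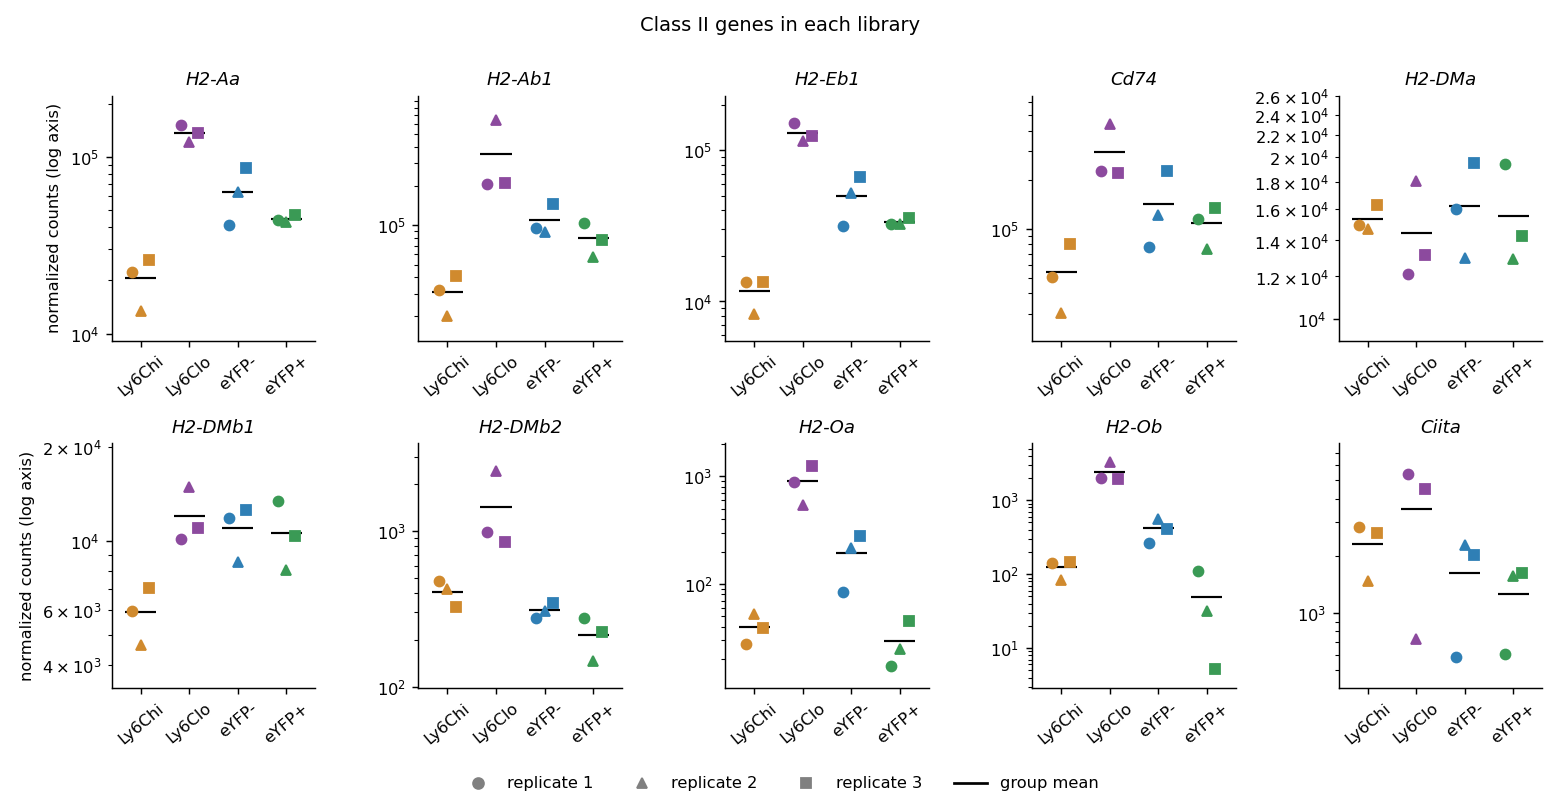
Normalised counts of the 10 class II genes on a log axis, one point per library and a line at the mean of each group of 3. H2-Oa lies between 544 and 1250.5 in Ly6Clo and between 17.5 and 45.9 in eYFP+ libraries, whereas the H2-DMa values of the 4 groups overlap.

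Of the H2-DM genes, H2-DMb1 had the same order of group means as the chains, and H2-DMa and H2-DMb2 did not. H2-DMa, the alpha chain, had 12146 to 18098 normalised counts in Ly6Clo, 14697 to 16293 in Ly6Chi, 13009.7 to 19534 in eYFP- and 12955 to 19409 in eYFP+ libraries, and no pair of groups differed by the test. H2-DMb1, a beta chain, had 10169 to 14906 in Ly6Clo, 4647 to 7079.9 in Ly6Chi, 8577 to 12590.4 in eYFP- and 8074 to 13403 in eYFP+ libraries. The Ly6Chi libraries lay below all others for this gene. H2-DMb2, the second beta chain gene, had 986, 2448 and 853 in Ly6Clo, 480.4, 423 and 323 in Ly6Chi, 277, 308 and 347 in eYFP- and 276, 147 and 224 in eYFP+ libraries. Transcripts of both beta chain genes were 95.5% identical over 1058 aligned bases, and 26.6% of the 50-base windows of H2-DMb1 also occurred in H2-DMb2, so the division of reads between them is uncertain.

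The H2-O genes spanned the widest range. H2-Oa, the alpha chain, had 885, 544 and 1250.5 normalised counts in Ly6Clo, 84.9, 213 and 281 in eYFP-, 27.6, 52.2 and 38.9 in Ly6Chi and 17.5, 24.8 and 45.9 in eYFP+ libraries. H2-Ob, the beta chain, had 1970.1, 3274 and 1941 in Ly6Clo, 267, 565 and 412 in eYFP-, 142, 82.6 and 147 in Ly6Chi and 110.1, 31.5 and 5.18 in eYFP+ libraries. For both genes every Ly6Clo library lay above every eYFP- library, and every eYFP- library above every library of the other groups. Ciita had 5398, 725 and 4497 in Ly6Clo, 2828, 1468 and 2642 in Ly6Chi, 584, 2275 and 2018 in eYFP- and 609, 1560.0 and 1618 in eYFP+ libraries. The lowest value of each macrophage group came from its replicate 1, and that of Ly6Clo from replicate 2, at a log2 ratio of -2.76 to the other libraries of its group. All 4 groups overlapped for Ciita when these libraries were included. H2-Oa overlaps a gene on the opposite strand (BC051537), as do Ciita (Dexi), H2-Eb1 (Gm20513) and H2-DMa (Brd2, among others), and whether strand was used in counting is not stated, so part of these counts may belong to the partner.

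The comparison of eYFP+ with eYFP- macrophages asks whether macrophages of embryonic and adult origin differ within the same marrow. H2-Oa and H2-Ob were lower in eYFP+ macrophages, and the chain genes, Cd74, the H2-DM genes and Ciita did not pass the test. H2-Oa was 6.53-fold lower (log2 difference -2.71 ± 0.55, SE, DESeq2 adjusted p = 0.000196), and H2-Ob was 8.52-fold lower (-3.09 ± 0.72, DESeq2 adjusted p = 0.00235). So 2 of 10 class II genes passed, against 2.04% of the 21567 genes tested (1.88% lower and 0.153% higher). By edgeR's quasi-likelihood test neither passed (adjusted p = 0.0677 for H2-Oa and 0.145 for H2-Ob), where 0.334% of all genes did. With each library left out in turn, both were lower at a DESeq2 adjusted p under 0.05 in 12 of 12 fits. The size for H2-Ob rested on eYFP+ replicate 1, without which its log2 difference was -4.52. The count was also 2 of 10 without Ly6Clo replicate 2 in the fit, against 4.16% of the 20781 genes then tested.

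The other 8 genes had log2 differences from -0.58 to -0.05, with no DESeq2 adjusted p below 0.715. The 95% intervals were -1.19 to 0.17 for H2-Aa (-0.51) and -1.24 to 0.09 for H2-Eb1 (-0.58). The median log2 difference of the 10 genes was -0.49, against 0.05 over all genes tested. The eYFP+ libraries lay wholly below the eYFP- libraries for H2-Oa, H2-Ob and H2-DMb2 (3 of 10, against 8.50% of all genes), although for H2-DMb2 the nearest values were 276 and 277.

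**Figure D3:**
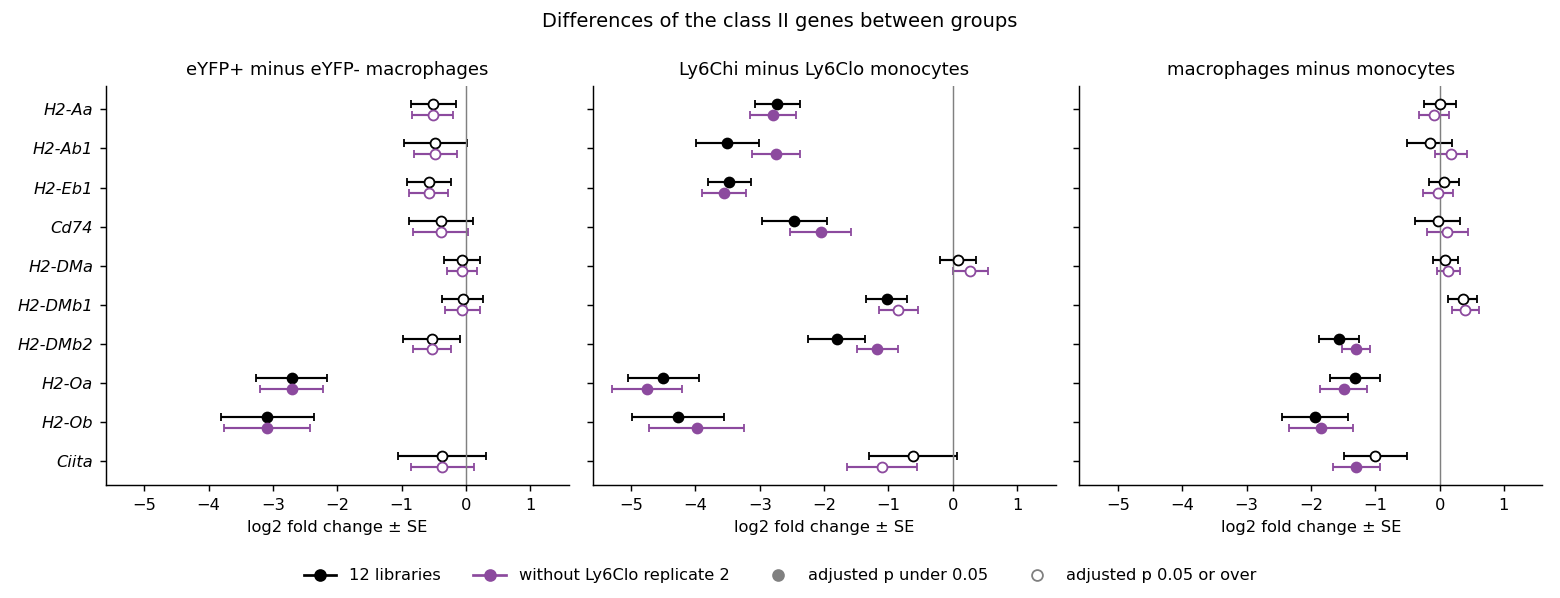
DESeq2 log2 differences with their SE for the 10 class II genes in the comparisons of macrophage origin, monocyte subset and cell type, with all 12 libraries (black) and without Ly6Clo replicate 2 (purple); filled points had an adjusted p under 0.05. H2-Oa and H2-Ob are filled in all 3 panels, and H2-DMa in none.

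Some markers of other cell types moved with the H2-O genes, and others did not. Of 12 dendritic cell markers, 3 were lower in eYFP+ macrophages and none higher. Flt3, the receptor for the cytokine FLT3L, had 680.1, 917 and 1077 normalised counts in eYFP- and 1.03, 65.8 and 24.4 in eYFP+ libraries (-4.87 ± 0.83, DESeq2 adjusted p = 2.24e-06). Xcr1, a chemokine receptor of type 1 conventional dendritic cells, had 224, 401 and 603 against 12.4, 24.8 and 6.66 (-4.81 ± 1.09, adjusted p = 0.00152). Cd209a, a lectin of monocyte-derived and conventional dendritic cells, had 92.1 to 116 in eYFP- libraries against 0, 21 and 9.62 in eYFP+ libraries (-3.33 ± 0.80, adjusted p = 0.00349). The eYFP- libraries lay above all eYFP+ libraries for each of these genes, as they did for H2-Oa and H2-Ob. By edgeR none of the 3 passed (adjusted p = 0.0626, 0.201 and 0.163). Zbtb46, Itgax and Clec10a, which are also on the list, did not pass. Itgax and Irf4 lay wholly higher in eYFP+ libraries, without passing. Itgax had 1324, 1843 and 1782 normalised counts in eYFP- and 1937, 1979 and 2133 in eYFP+ libraries. Irf4 had 32.9, 84.8 and 71.1 against 97.8, 108 and 190. Batf3 and Itgae lay wholly lower in eYFP+ libraries, also without passing. The summed level of the 12 markers was 131 to 186 TPM in eYFP- and 121 to 137 TPM in eYFP+ libraries, which overlapped. Of these markers, Ccr7 was at 0 in eYFP- replicate 1 and eYFP+ replicate 1, and Cd209a in eYFP+ replicate 1. Of the Ly6Chi monocyte markers 2 of 5 tested, among them Ccr2, and of the Ly6Clo monocyte markers 2 of 7, Spn and Itgal, were also lower in eYFP+ macrophages. The summed Ly6Chi markers were 10.4 to 56.7 TPM in eYFP- and 6.76 to 10.3 TPM in eYFP+ libraries, and the summed Ly6Clo markers 995 to 1112 and 1013 to 1523 TPM. In sorted populations measured in bulk, fewer cells of a type and less RNA per cell cannot be told apart, and the part of other cells in the H2-O result was not tested.

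B cell markers were counted in every macrophage library, Cd79b at 9276 to 18134 and Cd22 at 2223 to 3574 normalised counts. Of the 12 on the list, 4, 0 and 6 were at 0 in the eYFP- libraries and 5, 2 and 2 in the eYFP+ libraries. Ms4a1, which encodes the surface protein CD20, had 0, 50.6 and 0 normalised counts in eYFP- and at most 0.954 in eYFP+ libraries. Cd79a, a chain of the B cell receptor complex, had 13.7, 115 and 0.837 in eYFP- and 4.12, 2.86 and 12.6 in eYFP+ libraries. The transcription factor gene Ebf1 had 44.7, 11.9 and 8.37 in eYFP- and 3.09, 21.9 and 71.8 in eYFP+ libraries, and Vpreb3 had 13.7, 69.2 and 0 against 8.23, 4.77 and 20.7. Both groups overlapped for these 4 genes. Of 11 B cell markers tested, 1 was lower in eYFP+ macrophages (Ighm, -1.28 ± 0.39, DESeq2 adjusted p = 0.0487). Fcrla, an intracellular Fc receptor-like protein of B cells, had 135, 97.4 and 239 normalised counts in eYFP- and 23.7, 37.2 and 74.8 in eYFP+ libraries, without overlap, and did not pass (-1.79 ± 0.73, DESeq2 adjusted p = 0.302). Ighm and Fcrla thus lay in the same direction as the H2-O genes, whereas Cd22 lay the other way without overlap. Cd22 had 2246, 2338 and 2223 normalised counts in eYFP- and 2703, 3574 and 3459 in eYFP+ libraries. No B cell marker passed as higher in eYFP+ macrophages. The summed level of the 12 on the list was 552 to 644 TPM in eYFP- and 533 to 753 TPM in eYFP+ libraries. The part of B cells was not tested. None of 6 plasmacytoid dendritic cell markers tested (374 to 472 TPM in eYFP- and 436 to 542 TPM in eYFP+ libraries, summed over 7) and none of 8 T and NK cell markers (80.2 to 153 and 157 to 236 TPM) passed between the macrophage groups by DESeq2 or edgeR. At an unadjusted p under 0.05, DESeq2 gave 1 and 3 and edgeR 1 and 2, all lower in eYFP+ macrophages. When Ly6Clo replicate 2 was left out, 1 of each list was lower in eYFP+ macrophages.

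**Figure D4:**
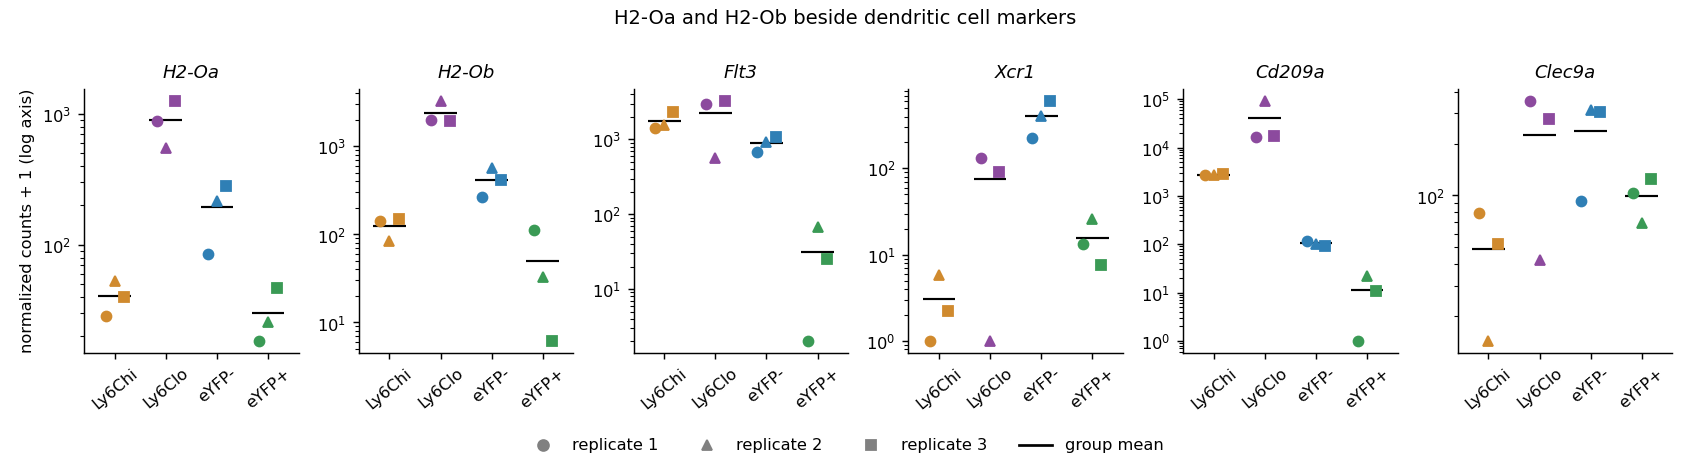
Normalised counts plus 1, on a log axis, of H2-Oa, H2-Ob and of the dendritic cell markers Flt3, Xcr1, Cd209a and Clec9a in the 12 libraries, with a line at the mean of each group. The eYFP+ libraries lie below the eYFP- libraries for H2-Oa, H2-Ob, Flt3, Xcr1 and Cd209a, whereas Clec9a overlaps.

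The comparison of Ly6Chi with Ly6Clo monocytes asks how the presentation genes differ between both monocyte subsets, as sorted by Ly6C. All 4 genes for the chains and CD74 were lower in Ly6Chi monocytes. H2-Ab1 was 11.3-fold lower (-3.50 ± 0.49, DESeq2 adjusted p = 2.33e-10), H2-Eb1 11.1-fold (-3.47 ± 0.34, 4.93e-22), H2-Aa 6.61-fold (-2.73 ± 0.35, 1.12e-12) and Cd74 5.51-fold (-2.46 ± 0.50, 5.39e-05). Without Ly6Clo replicate 2 the difference of H2-Ab1 was -2.75 and that of Cd74 -2.06.

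Both H2-O genes had larger fold differences than the chains, though this was not tested. H2-Oa was 22.6-fold lower in Ly6Chi monocytes (-4.50 ± 0.55, DESeq2 adjusted p = 4.83e-14) and H2-Ob 19.3-fold (-4.27 ± 0.72, 2.72e-07). H2-DMb2 was 3.49-fold lower (-1.80 ± 0.44, adjusted p = 0.00132), and -1.17 on the log2 scale without Ly6Clo replicate 2. H2-DMb1 was 2.04-fold lower (-1.03 ± 0.32, adjusted p = 0.0182). That call was lost without Ly6Clo replicate 2 (-0.84, adjusted p = 0.058), without Ly6Chi replicate 1 (0.0887), without Ly6Chi replicate 2 (0.139) and by edgeR (0.0598). H2-DMa had a difference of 0.08 ± 0.28 and Ciita of -0.61 ± 0.68 (adjusted p = 0.677), or -1.10 without Ly6Clo replicate 2 (0.239). In all, 8 of 10 class II genes were lower in Ly6Chi monocytes and none higher, where 8.62% of the 21567 genes tested passed (4.97% lower and 3.66% higher). By edgeR 7 of 10 passed, against 4.32% of all genes. Without Ly6Clo replicate 2 it was 7 of 10, against 9.70%.

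The same 8 genes had Ly6Clo libraries wholly above the Ly6Chi libraries, against 11.9% of all genes. Dendritic cell markers moved with them, since 8 of 12 were lower in Ly6Chi monocytes, among them Itgax, the integrin chain CD11c (-4.54), and Cd209a (-3.91). Leaving out Ly6Clo replicate 2, it was 7 of 11 tested, and Cd209a had -2.59. Their summed level was 867 to 3058 TPM in Ly6Clo and 208 to 246 TPM in Ly6Chi libraries, the highest from Ly6Clo replicate 2, where Cd209a alone had 91254 normalised counts and Xcr1 and Fscn1 had none. Of the macrophage markers, 7 of 10 were also lower in Ly6Chi monocytes (8 of 10 without Ly6Clo replicate 2), with summed levels of 1135 to 3116 TPM in Ly6Clo and 583 to 667 TPM in Ly6Chi libraries. Plasmacytoid dendritic cell markers did not follow the class II genes. Of 6 tested, 2 were higher in Ly6Chi monocytes (Bst2, 0.98, and Ccr9, 2.53) and 1 was lower (Cox6a2, -3.55), and the summed level of the 7 on the list was 361 to 440 TPM in Ly6Chi and 200 to 259 TPM in Ly6Clo libraries. The calls of Ccr9 and Cox6a2 were lost without Ly6Clo replicate 2. Of 8 T and NK cell markers 1 was lower in Ly6Chi monocytes (Ncr1, -4.51) and none higher, and 2 were lower without that library, with Cd4 added (-4.93). The part of such cells in the result was not tested. Of the 11 B cell markers tested 3 were lower in Ly6Chi monocytes (Cd79b, Cd22 and Fcrla) and none higher (3 of 10 without Ly6Clo replicate 2, where Cd79b had -0.92 in place of -1.51 and Fcrla -3.49 in place of -4.49), and the summed level of the 12 on the list was 642 to 1479 TPM in Ly6Clo and 545 to 609.9 TPM in Ly6Chi libraries. In the Ly6Clo libraries Ms4a1 was at 0, whereas Cd79a had 104 to 132 and Ighm 20306 to 49139 normalised counts. The part of B cells was not tested either.

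Macrophages of both origins, weighted equally, were compared with both monocyte subsets. H2-DMb2 (-1.56 ± 0.31, DESeq2 adjusted p = 5e-06), H2-Ob (-1.94 ± 0.51, 0.000718) and H2-Oa (-1.31 ± 0.39, 0.00307) were lower in macrophages, and none of the 10 was higher. This was 3 of 10, against 35.4% of the 22385 genes tested (15.0% lower and 20.3% higher), a share near that of all genes. By edgeR the same 3 passed, against 35.6% of all genes. Without eYFP+ replicate 1 H2-Ob had -2.65. Ciita had -1.0 ± 0.48 (adjusted p = 0.0971) and passed without Ly6Clo replicate 2 (-1.29 ± 0.37, adjusted p = 0.00161; 4 of 10, against 39.2%). The differences of H2-Aa (0.00), H2-Ab1 (-0.15), H2-Eb1 (0.07) and Cd74 (-0.03) average a higher and a lower monocyte subset, so each macrophage group was set against each subset. Of 8 T and NK cell markers 7 were higher in macrophages and none lower, with summed levels of 80.2 to 236 TPM in macrophage libraries against 0.421 to 19.9 TPM in Ly6Clo and at most 1.80 TPM in Ly6Chi libraries. Of 12 dendritic cell markers 2 were higher and 4 lower, and of 12 B cell markers 2 and 2 (3 higher without Ly6Clo replicate 2, with Fcrla added). Of 6 plasmacytoid dendritic cell markers tested 3 were higher and 1 lower. The part of other cells was not tested.

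Against Ly6Chi monocytes the chain genes were higher in macrophages of both origins. In eYFP+ macrophages 4 of 10 genes were higher and none lower (13.9% of all genes were higher), namely H2-Eb1 (1.52), H2-Ab1 (1.36), H2-Aa (1.11) and H2-DMb1 (0.85). There H2-Ob (-1.35), H2-DMb2 (-0.92), Ciita (-0.87) and H2-Oa (-0.42) had differences below 0 that did not pass, and all eYFP+ libraries lay below the Ly6Chi libraries for H2-DMb2. In eYFP- macrophages 6 of 10 were higher and none lower (16.3% of all genes were higher), namely H2-Oa (2.29), H2-Eb1 (2.09), H2-Ab1 (1.84), H2-Aa (1.62), Cd74 (1.39) and H2-DMb1 (0.90). H2-Ob had 1.74 there (DESeq2 adjusted p = 0.0553). Markers of other cells moved too. In eYFP- macrophages 7 of 12 dendritic cell markers were higher than in Ly6Chi monocytes and 2 lower (6 and 2 of 11 without Ly6Clo replicate 2), although their summed level was lower, at 131 to 186 against 208 to 246 TPM. There 4 of 8 T and NK cell markers were higher (5 without that library), and 3 of 11 B cell markers were higher and 1 lower. In eYFP+ macrophages 4 of 12 dendritic cell markers were higher and 3 lower (4 and 4 of 11 without that library), 3 of 8 T and NK cell markers were higher, and 3 of 12 B cell markers were higher and 1 lower. Of 6 plasmacytoid dendritic cell markers 1 was higher in each macrophage group, and 1 was lower in eYFP+ macrophages. Their part was not tested. By edgeR 4 and 5 of the 10 passed, against 24.6% and 23.2% of all genes in either direction, and Cd74 did not in eYFP- macrophages (adjusted p = 0.0506). Without Ly6Clo replicate 2 in the fit, 4 of 10 were higher and 1 lower in eYFP+ macrophages (34.9% of all genes passed in either direction), the latter H2-DMb2 (-0.98, DESeq2 adjusted p = 0.0037). In eYFP- macrophages 7 of 10 were then higher and none lower (32.2% of all genes), with H2-Ob added (1.69, adjusted p = 0.0358). Some calls rested on single libraries. H2-DMb1 was lost without replicate 1 or 2 of Ly6Chi, replicate 1 or 3 of eYFP+ and replicate 1 or 3 of eYFP-, each in its own comparison (DESeq2 adjusted p up to 0.167). In eYFP+ macrophages H2-Ab1 was lost without the same Ly6Chi or eYFP+ libraries (up to 0.143) and H2-Aa without Ly6Chi replicate 2 (0.064). In eYFP- macrophages Cd74 was lost without eYFP- replicate 3 or Ly6Chi replicate 1 or 2 (up to 0.256).

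Against Ly6Clo monocytes the chain genes, H2-DMb2 and both H2-O genes were lower in macrophages of both origins. In eYFP+ macrophages 7 of 10 were lower (12.2% of all genes were), H2-Ob by 49.2-fold (132-fold without eYFP+ replicate 1) and H2-Oa by 30.2-fold, followed by H2-DMb2 (-2.73), H2-Ab1 (-2.14), H2-Eb1 (-1.96), H2-Aa (-1.61) and Cd74 (-1.46). In eYFP- macrophages 6 of 10 were lower (10.8% of all genes were), namely H2-Ob (-2.53), H2-Oa (-2.21), H2-DMb2 (-2.20), H2-Ab1 (-1.67), H2-Eb1 (-1.38) and H2-Aa (-1.10). By edgeR the same numbers passed, against 23.3% and 21.9% of all genes in either direction. Cd74 was lost in eYFP+ macrophages without Ly6Clo replicate 2 (-1.10, DESeq2 adjusted p = 0.0703) or eYFP+ replicate 2 (0.102), and H2-Aa in eYFP- macrophages without eYFP- replicate 1 (0.0641). Of 12 dendritic cell markers 4 were lower than in Ly6Clo monocytes in each macrophage group and none higher, with summed levels of 121 to 186 TPM in macrophage against 867 to 3058 TPM in Ly6Clo libraries. When Ly6Clo replicate 2 was left out, 8 of 11 were lower in eYFP+ macrophages, and 5 of 11 were lower and 1 higher in eYFP- macrophages. Of 8 T and NK cell markers 3 were higher in eYFP+ macrophages (2 without that library) and 6 in eYFP- macrophages. Of 11 B cell markers 2 were higher and 3 lower in eYFP+ macrophages, Fcrla among the lower (-2.11, and -1.16 without that library, where it did not pass), and 3 were higher and 2 lower in eYFP- macrophages (2 and 2 without it). Of 6 plasmacytoid dendritic cell markers 2 were higher in each macrophage group (3 without that library), and 1 was lower in eYFP+ and 2 in eYFP- macrophages (1 in each without it). The part of these cells was not tested. These comparisons share libraries with each other and are not separate evidence. Without Ly6Clo replicate 2, 7 of 10 were lower in each macrophage group and none higher (27.9% and 28.5% of all genes passed in either direction). H2-Ab1 then had -1.44 in eYFP+ and -0.97 in eYFP- macrophages, and H2-DMb2 had -2.15 and -1.62. Without that library Ciita was also lower in eYFP+ (-2.03, DESeq2 adjusted p = 0.00129) and eYFP- macrophages (-1.66, 0.0114) than in Ly6Clo monocytes.

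Placed in order of mean level, neighbouring groups of H2-Aa, H2-Ab1 and H2-Eb1 differed between Ly6Clo and eYFP- and between eYFP+ and Ly6Chi, but not between both macrophage groups. For H2-Oa the order was Ly6Clo, eYFP-, Ly6Chi, eYFP+, and the last neighbours did not differ beyond their spread. H2-Ob had the same order, with a difference between Ly6Clo and eYFP- and none shown between the later neighbours. For H2-DMa, Cd74 and Ciita no neighbouring groups differed.

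Proportions between class II genes were compared per transcript length, in TPM, as a description without a test, since these pairs were chosen after their values were seen and 3 libraries against 3 cannot go below p = 0.10 in a permutation test. H2-Oa stood at 4.58 to 14.5% of H2-DMa in Ly6Clo, 0.806 to 2.50% in eYFP-, 0.281 to 0.542% in Ly6Chi and 0.137 to 0.490% in eYFP+ libraries. H2-Ob stood at 9.30 to 11.6% of H2-DMb1 in Ly6Clo, 1.19 to 3.47% in eYFP-, 0.935 to 1.26% in Ly6Chi and 0.0264 to 0.432% in eYFP+ libraries. Transcripts of the modulator were thus a small share of those of H2-DM in every group and the smallest on average in eYFP+ macrophages. There the range for H2-Ob lay below those of all other groups, whereas the range for H2-Oa overlapped with that of Ly6Chi monocytes.

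The chains and H2-DM subunits also differed in proportion. H2-Eb1 stood at 0.621 to 0.683 of H2-Aa in Ly6Clo, 0.520 to 0.558 in eYFP-, 0.501 to 0.516 in eYFP+ and 0.350 to 0.418 in Ly6Chi libraries, without overlap. H2-DMa stood at 1.01 to 1.03 times H2-DMb1 in Ly6Clo libraries and at 1.95 to 2.68 times in Ly6Chi libraries, with 1.15 to 1.31 in eYFP- and 1.17 to 1.36 in eYFP+ macrophages. Ciita had 6.80 to 8.66 TPM for every 1000 TPM of the 3 chain genes in Ly6Chi monocytes, against 0.172 to 2.26 in Ly6Clo, 0.725 to 2.35 in eYFP- and 0.701 to 2.48 in eYFP+ libraries. The chains are the denominator of this ratio, and they were lowest in Ly6Chi monocytes. Ciita itself overlapped between the subsets, at 11.8 to 22.7 TPM in Ly6Chi and 5.53 to 46.1 TPM in Ly6Clo libraries. Over the 12 libraries Ciita correlated at 0.25 with H2-Aa and -0.08 with H2-Ab1, and without Ly6Clo replicate 2 at 0.45 and 0.23, again as a description.

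**Figure D5:**
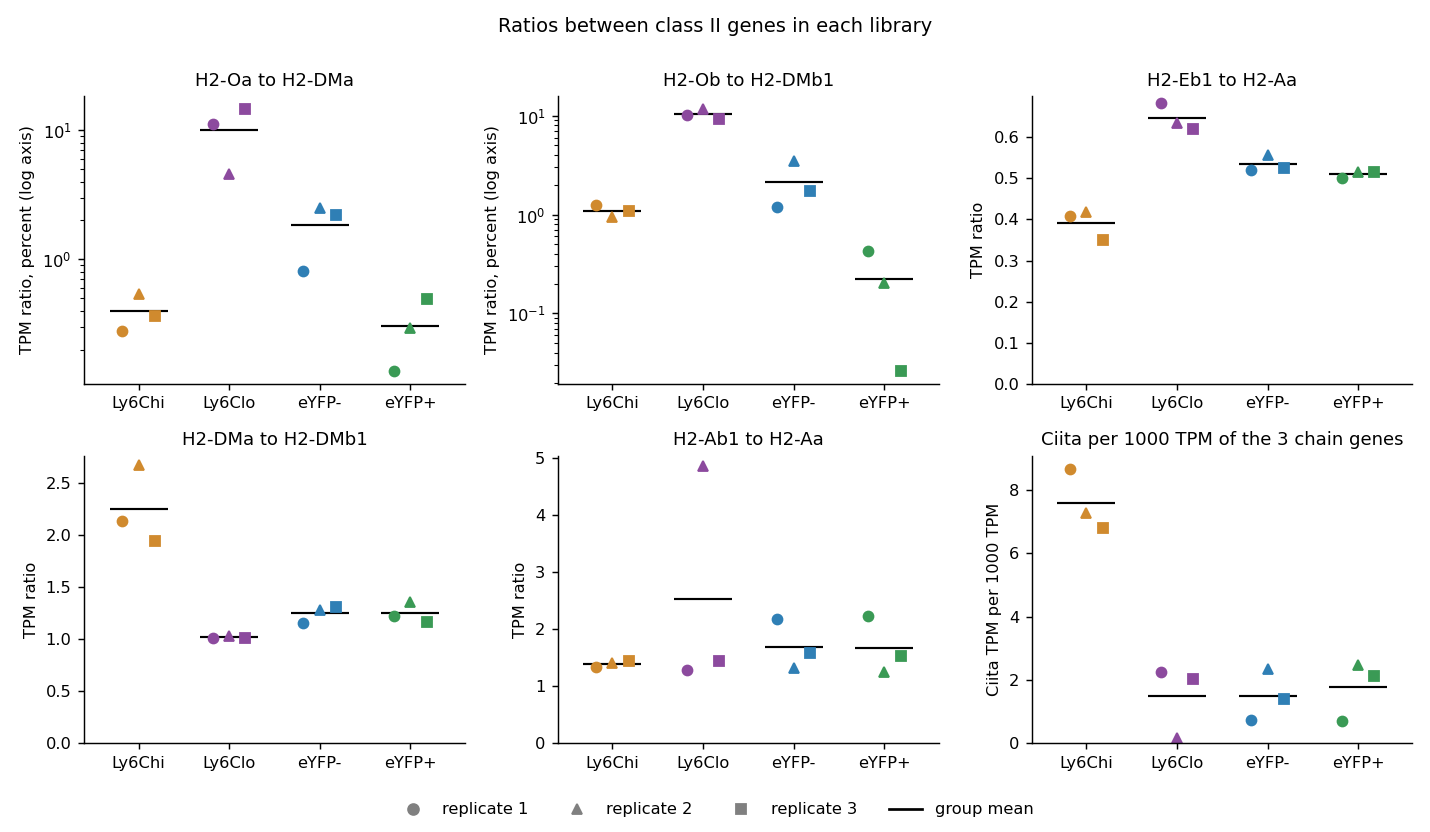
Proportions between class II genes in TPM in the 12 libraries: H2-Oa to H2-DMa and H2-Ob to H2-DMb1 in percent on a log axis, H2-Eb1 to H2-Aa, H2-DMa to H2-DMb1, H2-Ab1 to H2-Aa, and Ciita TPM for every 1000 TPM of the 3 chain genes. Ciita stands at 6.80 to 8.66 in Ly6Chi libraries and at most 2.48 in all others, and H2-Ab1 to H2-Aa reaches 4.86 in Ly6Clo replicate 2.

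The partners of the pathway were described from gene lists. None of 42 tested genes on 6 lists (cofactors at the X and Y boxes, interferon-γ signalling, antigen processing, class II turnover, costimulation, other genes of the class II locus) passed between eYFP+ and eYFP- macrophages by DESeq2 or edgeR. At an unadjusted p under 0.05, DESeq2 gave 2 (Nfyc and Pdcd1lg2) and edgeR 1. Between the monocyte subsets none of 7 cofactors and none of 7 interferon-γ genes passed. Of all genes 4.97% were lower in Ly6Chi monocytes, and for lists this short a count of 1 is near that share. In Ly6Chi monocytes 1 of 8 processing genes was lower, the asparaginyl endopeptidase Lgmn (-1.73), and 2 of 6 turnover genes, among them Cd83, which stabilises surface class II (-5.53, and -4.57 without Ly6Clo replicate 2). Of 8 costimulation genes 2 were lower, the PD-1 ligands Pdcd1lg2 (-6.52) and Cd274 (-3.34), and of 6 tested genes of the locus 1, H2-Eb2 (-5.99). The call of H2-Eb2 was lost without Ly6Clo replicate 2 (DESeq2 adjusted p = 0.17), and there the thiol reductase Ifi30 was higher (0.87, 0.0113).

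Between macrophages and monocytes 20.3% of all genes were higher in macrophages and 15.0% lower, and the counts of each list are read against these shares. In macrophages 5 of 8 processing genes were higher, among them the proteases Ctsd (4.45), Lgmn (2.79) and Ctsb (2.46), and 1 was lower, Ifi30 (-1.30). Their summed level was 21654 to 28989 TPM in macrophage and 8961 to 9923 TPM in monocyte libraries. Of 6 turnover genes 4 were higher, among them Marchf8, a ubiquitin ligase of class II (2.70), and none lower. Of 7 interferon-γ genes 1 was higher and 4 were lower, among them the receptor chains Ifngr1 (-0.82) and Ifngr2 (-1.05). The cofactors were near the share of all genes. Of 7, Rfx5, a subunit of the X box complex, was higher (1.37) and Nfyc, a subunit of the Y box complex, lower (-0.42). Of 8 costimulation genes 3 were higher, among them the CD28 ligands Cd86 (3.32) and Cd80 (1.79), and 4 were lower, among them Cd40 (-1.15). Of 6 genes of the locus, also near that share, Btnl2 was higher (4.73) and Psmb8, a subunit of the immunoproteasome, lower (-0.70). With Ly6Clo replicate 2 left out the lower genes also included Sppl2a (-0.48) for processing, Marchf1 (-0.54) and Il10ra (-1.08) for turnover and Tap1 (-0.69) for the locus. These values are log2 differences with a DESeq2 adjusted p under 0.05.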

How the data were processed

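RNA of sorted bone marrow cells was measured as amplified full-length cDNA without molecular identifiers, in 12 libraries. Per the labels, the authors used bcl2fastq 2.20.0.422 and featureCounts on GRCm39, after trimming, read correction, rRNA removal and alignment with segemehl, and deposited counts per gene, TPM and variance-stabilised values on a log2 scale (made with DESeq2). Whether strand was used is not stated. Identifiers were matched to symbols (91.4% had one). The deposited counts were tested, the deposited TPM served for levels per length, and the deposited log2 values only for correlations.

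The main test was DESeq2 1.42.0 in R 4.3.3, with 1 factor of 4 groups over all 12 libraries and Benjamini-Hochberg adjustment over all genes, and a call was an adjusted p under 0.05. The group means of macrophages and of monocytes were contrasted with equal weights. Alternatives were edgeR 4.0.16 (quasi-likelihood), its TMM factors, limma 3.58.1 on log2(TPM + 1) and log2(TPM + 0.1), a filter (at least 10 counts in 3 libraries), DESeq2 without its outlier limit or without its filter on mean counts, fits of the compared groups only, a replicate block, each library left out, and a correction for GC content, the last chosen after the data were seen. The fits were tested on simulated data. The members and lists were chosen with earlier results of these data known. Genes were named from lists when they passed, with a mean of at least 50 normalised counts and the smallest adjusted p, at most 3 per list and direction, plus all members. Markers other than these, including Ighm, Ebf1, Vpreb3, Ncr1, Ccr9, Cox6a2, Zbtb46, Itgax, Clec10a, Nfyc and the genes at 0, and the genes compared in proportion were named after their values were seen. Promoters came from RefSeq GRCm38.p6. The counts are on another build, so no gene coordinates are given. Some genes of the lists are counted but not reported here by name.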

Additional observations from a re-analysis of the deposited data

How the results depend on the processing

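The number of class II genes called between eYFP+ and eYFP- macrophages was 2 with DESeq2, and 0 to 2 over 24 alternatives. It was 0 by edgeR and 0 by edgeR with the replicate block (2 and 2 at an unadjusted p under 0.05), and 1 by limma on log2(TPM + 0.1) and 1 on log2(TPM + 1) without a filter. Over these alternatives the adjusted p of H2-Oa ranged from 4.54e-06 to 0.109 and that of H2-Ob from 2.33e-09 to 0.256. The count between monocyte subsets was 6 to 8 (8 in the report), between macrophages and monocytes 3 to 4 (3), and over the single groups 17 to 26 of 40 (23). With 1 library left out the counts were 2 to 2, 7 to 8, 3 to 4 and 18 to 26. The GC correction, chosen after seeing the data, gave 2, 7, 4 and 18. H2-Ab1 had no adjusted p in any of the 7 comparisons there, so it could not count as called, including in the 4 of single groups where DESeq2 called it otherwise. Its difference there was -4.47 for Ly6Chi minus Ly6Clo (-3.50 otherwise), -2.71 for eYFP- minus Ly6Clo (-1.67) and -2.92 for eYFP+ minus Ly6Clo (-2.14). Same-numbered libraries did not deviate together in every pair: over 2000 genes r ran from -0.403 (replicate 1 of eYFP+ and Ly6Clo) to 0.274 (replicate 3 of the same groups), with 0.202, 0.0627 and -0.00197 between the macrophage groups, so the numbers were not taken as pairs. The replicate block gave 2, 8, 3 and 21 calls in DESeq2 and 0, 6, 3 and 17 in edgeR. In edgeR the 17 were 2 (eYFP+) and 4 (eYFP-) against Ly6Chi and 7 and 4 against Ly6Clo, where edgeR without the block gave 4, 5, 7 and 6.

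Of 1663 alternative values 50 changed sign, in 14 of 70 results and in 0 where either value was called, and 51 calls were lost and 20 gained. The log2 differences that changed sign were small. With the GC correction H2-DMa had 0.11 and H2-DMb1 0.069 for eYFP+ minus eYFP- macrophages, H2-DMa had -0.44 for Ly6Chi minus Ly6Clo, -0.16 for macrophages minus monocytes, and -0.33 (eYFP+) and -0.43 (eYFP-) against Ly6Clo, and for macrophages minus monocytes H2-Aa had -0.069 and H2-Eb1 -0.070. For macrophages minus monocytes H2-Aa also had -0.014 by edgeR and -0.0026 with the block, and by the limma fits H2-Ab1 had 0.045, 0.045 and 0.045 and Cd74 0.072, 0.073 and 0.072. H2-DMa of eYFP+ macrophages against Ly6Chi had -0.024 by edgeR, -0.024 with the block, -0.0054 by TMM scaling and -0.031 in a fit of the compared groups. With 1 library left out, eYFP+ minus eYFP- ranged from -0.25 to 0.10 for H2-DMa, -0.25 to 0.11 for H2-DMb1 and -0.68 to 0.13 for Cd74, and Ly6Chi minus Ly6Clo from -0.030 to 0.28 for H2-DMa. Macrophages minus monocytes ranged from -0.13 to 0.13 for H2-Aa, -0.29 to 0.17 for H2-Ab1, -0.058 to 0.20 for H2-Eb1 and -0.28 to 0.17 for Cd74. H2-DMa ranged from -0.16 to 0.14 (eYFP+ against Ly6Chi), -0.080 to 0.25 (eYFP+ against Ly6Clo) and -0.074 to 0.22 (eYFP- against Ly6Chi), and H2-DMb1 from -0.24 to 0.027 (eYFP- against Ly6Clo). The causes were not tested. Precision is limited by 3 libraries a group and by reads from amplified cDNA without molecular identifiers, and a difference that did not pass is not shown to be absent.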

Other observations

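Genes whose levels most resembled those of the class II genes were ranked among 10911 genes by Pearson correlation over the 12 libraries on the variance-stabilised scale, as a description with no p. With the mean z-score of H2-Aa, H2-Ab1, H2-Eb1 and Cd74 the highest were Map4k5 (0.943), Cd7 (0.936), Bcl2a1d (0.928), Ets1 (0.927) and Snhg15 (0.925). Without Ly6Clo replicate 2 they were Cd7 (0.962), Fcgr4 (0.926), Clec9a (0.926), Map4k5 (0.925) and Cd274 (0.922), of which Clec9a, a dendritic cell lectin, had 0.612 with that library. With Ciita the highest were Polr1a (0.959), Ptk2b (0.943), Fbxo32 (0.937), Gmeb2 (0.920) and Wdr33 (0.913). Without Ly6Clo replicate 2 Arhgap27os3 came first (0.960), then Polr1a (0.954), Smad3 (0.952), Polr2a (0.938) and Ptk2b (0.937). The points share depth, base composition and 4 groups.

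H2-Ab1 and H2-Aa, whose products pair in I-A, stood at a TPM ratio of 1.24 to 1.59 in 9 of the 12 libraries and at 2.18 in eYFP- replicate 1, 2.24 in eYFP+ replicate 1 and 4.86 in Ly6Clo replicate 2. The same 3 libraries had the lowest Ciita of their groups, at log2 ratios of -1.87, -1.38 and -2.76 to the other libraries. For the 2587 genes of highest GC content the median log2 ratios were -0.02, -0.58 and -1.06. With Cd74, H2-Ab1 correlated at 0.96 and H2-Aa at 0.93, and with Ciita at -0.08 and 0.25. Without Ly6Clo replicate 2 these values were 0.94 and 0.95 with Cd74, and 0.23 and 0.45 with Ciita.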
